A study of Homo sapiens with 4 samples.

Results

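DCX, NRCAM, PRPH and INSM1 are 4 genes of neuronal differentiation among the 14812 named genes measured on arrays of BE(2)C, a human neuroblastoma cell line in long use that was cloned from a parental line. They were taken by symbol, with 1 probe set per gene, after their levels had been seen to differ in this same comparison. Their differences are therefore given as a description, without a test. A pair of samples received non-targeting control siRNA and another pair received siRNA against SSRP1, a subunit of the histone chaperone FACT. RNA was taken 72 hours after transfection with a lipid reagent, and 100 ng of it went onto 1 Affymetrix whole-transcript array per sample. All samples were otherwise the same cells in the same serum-containing medium, with no untransfected group. The labels give a single catalogue item for the SSRP1 siRNA, so the samples show 1 reagent in 1 clonal line. Separate cultures behind the replicates are not mentioned, so a p-value here covers the spread among these 4 samples alone, which could be technical.

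The 4 genes act at different steps of the same process. Neural precursors first express transcription factors such as INSM1, a zinc finger repressor of neuroendocrine and neuronal precursors that recruits histone-modifying corepressors. Young neurons then remodel their skeleton and surface: DCX stabilises the microtubules of migrating neurons, and NRCAM, an L1-family adhesion molecule, guides and clusters axonal membrane proteins. PRPH is an intermediate filament protein of peripheral neurons, and neuroblastomas, which arise from sympathetic precursors of the neural crest, can express genes of each of these steps.

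The upstream sequences are shown because the genes did not all differ in the same direction, and they allow DCX and NRCAM, which were higher with SSRP1 siRNA, to be set beside PRPH, which was lower. Sequences came from RefSeq (GRCh38.p14), where DCX and NRCAM each matched 3 transcription starts and PRPH 1. INSM1 was not matched. For each gene the 250 bases before the most upstream start are printed 5′ to 3′ on the gene's strand. They lie at chrX:111412193-111412442 (minus strand) for DCX, chr7:108456437-108456686 (minus strand) for NRCAM and chr12:49294897-49295146 (plus strand) for PRPH. Capitals mark matches to any of 8 motifs searched on both strands.
DCX: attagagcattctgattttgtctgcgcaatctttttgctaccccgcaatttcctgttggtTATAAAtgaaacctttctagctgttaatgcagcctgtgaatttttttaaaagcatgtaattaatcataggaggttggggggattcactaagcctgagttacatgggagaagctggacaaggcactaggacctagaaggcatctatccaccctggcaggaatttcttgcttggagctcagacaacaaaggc
NRCAM: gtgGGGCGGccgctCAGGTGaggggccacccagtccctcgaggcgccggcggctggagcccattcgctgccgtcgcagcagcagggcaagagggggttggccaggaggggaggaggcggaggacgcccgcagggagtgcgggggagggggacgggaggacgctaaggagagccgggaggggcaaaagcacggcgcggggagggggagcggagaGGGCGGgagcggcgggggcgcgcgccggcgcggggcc
PRPH: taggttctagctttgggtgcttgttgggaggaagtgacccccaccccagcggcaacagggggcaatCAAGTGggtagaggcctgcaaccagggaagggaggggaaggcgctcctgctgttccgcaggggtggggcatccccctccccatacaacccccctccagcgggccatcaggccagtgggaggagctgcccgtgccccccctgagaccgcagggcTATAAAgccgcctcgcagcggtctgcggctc

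The motifs were the E-box CANNTG that basic helix-loop-helix factors bind, and 3 of its forms, which overlap it by definition: CAGCTG, the form bound by many proneural factors, with the related form CAGATG, and the form CACGTG that MYC-type factors bind. Beside these stood a conserved arm of RE1 (the element bound by the neuronal repressor REST), the GC box GGGCGG, the NF-Y element CCAAT, and the TATA element TATAAA. The last of these began 31 bases before the PRPH start and 190 bases before the DCX start, and 10.7% of all 35116 windows of the same length held it. The NRCAM window held GGGCGG at 2 places, at 247 and 37 bases before the start, against 42.6% of all windows with at least 1 match. An E-box began 236 bases before the NRCAM start and 184 bases before the PRPH start, and the window of DCX printed here held none, where 61.8% of all windows held at least 1. DCX had 3 E-boxes before its most downstream start, and NRCAM had 1 before each of its other starts. The windows also differed in base composition, with 42.8% G and C for DCX, 66.8% for PRPH and 78.4% for NRCAM around a median of 58% over all windows. No motif of the 8 was common to the 3 printed windows. The array does not show which start was used, so a match is a description of sequence alone. Whether any motif goes with the direction of a change was not tested.

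The siRNA target was lower in both samples that received its siRNA. SSRP1 read 9.05 and 9.23 (log2 expression) with control siRNA and 7.42 and 6.97 with SSRP1 siRNA, a log2 change of -1.95 ± 0.17 (SE), with a limma adjusted p of 0.0479. The adjusted p lay between 0.00314 and 0.599 over the alternative settings and the call was lost without any 1 of the 4 arrays, with the replicate block (0.0569), with robust variances (0.0512) and over all probe sets (0.144). SUPT16H, the partner of SSRP1 in FACT, had a change of -0.07 ± 0.10 (SE). The 4 arrays had medians between 3.37 and 3.42 over all probe sets, and their number limits the precision of every value. With a threshold of 0.05 on the limma adjusted p, 14 of 14812 genes (0.0945%) were called, 12 higher (0.081%) and 2 lower (0.0135%). Of the calls made after quantile normalization 17 of 25 were higher, and with median centring 17 of 23. With the replicate block 6 genes were called, all higher, and without any 1 array 0 in limma (1200 to 1672 at an unadjusted p under 0.05). The median change over all genes was -0.007, with a median SE of 0.12.

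DCX had the largest difference of the 4 genes. Its log2 expression was 5.59 and 5.27 with control siRNA and 6.16 and 6.42 with SSRP1 siRNA. Both SSRP1 siRNA arrays lay above both controls, by 0.57 between the nearest arrays and 1.15 between the farthest. The group means were 5.43 ± 0.22 (SD, n = 2) and 6.29 ± 0.19 (SD, n = 2), a log2 change of 0.86 ± 0.16 (SE), or 181% of the control level. The spread within each group was wider for DCX than for the other 3 genes, with the controls 0.31 apart and the SSRP1 siRNA arrays 0.27 apart. Over all genes, 78 (0.527%) had a difference at least as large in the same direction.

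NRCAM was the gene of the 4 with the smallest difference. The control arrays read 9.11 and 9.03, close to each other, and the SSRP1 siRNA arrays read 9.47 and 9.65. The nearest arrays of the groups were 0.37 apart, against 0.08 between the controls and 0.18 between the SSRP1 siRNA arrays. The means were 9.07 ± 0.05 (SD, n = 2) and 9.56 ± 0.13 (SD, n = 2), which gave a log2 change of 0.50 ± 0.11 (SE), or 141% of control. Of all genes, 341 (2.30%) had a difference at least as large in the same direction.

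INSM1 differed by about as much as NRCAM, with almost equal values in the pair of SSRP1 siRNA samples. It read 6.52 and 6.31 with control siRNA and 6.97 and 6.95 with SSRP1 siRNA. The SSRP1 siRNA arrays were 0.02 apart and the controls 0.21 apart, so nearly all of the spread of INSM1 within groups lay between the controls. The log2 change was 0.54 ± 0.12 (SE) from 6.41 ± 0.15 (SD, n = 2) to 6.96 ± 0.02 (SD, n = 2), or 146% of control, and 263 genes (1.78%) had a difference at least as large in that direction.

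PRPH was the only one of the 4 that was lower with SSRP1 siRNA. Its control arrays read 7.41 and 7.51, and its SSRP1 siRNA arrays 6.96 and 6.89. All of the control values lay above all of the SSRP1 siRNA values, and the nearest were 0.45 apart. The group means were 7.46 ± 0.07 (SD, n = 2) and 6.92 ± 0.05 (SD, n = 2). The log2 change of -0.54 ± 0.10 (SE) corresponds to 68.9% of the control level, and 189 genes (1.28%) were lower by at least as much.

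**Figure D1:**
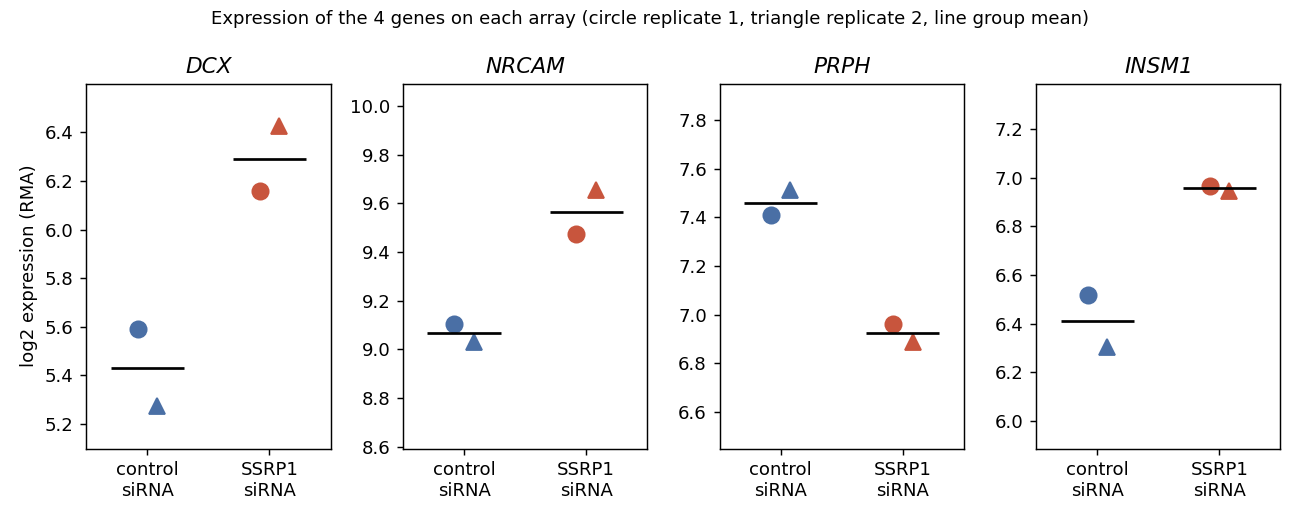
Log2 expression (vertical axis, a span of the same length in each panel) of DCX, NRCAM, PRPH and INSM1 on each of the 4 arrays, with circles for replicate 1, triangles for replicate 2 and lines for the group means. The SSRP1 siRNA arrays lie above the controls for DCX, NRCAM and INSM1 and below them for PRPH, and the groups overlap in none of the 4 panels.

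The groups did not overlap for any of the 4 genes, as for 44.3% of all genes tested. Since the genes were chosen on this comparison, nothing is read from that count. All 4 lay above the median level of all genes (4.64), each was measured by a single probe set, and no filter on low values was applied. The size of each difference depended on which control was used: control replicate 2 lay farther from the SSRP1 siRNA arrays than control replicate 1 for all 4 genes. Among the 576 genes whose difference was at least as large as that of NRCAM, 54.2% showed that order. With 1 array left out in turn, which cannot turn the sign where groups do not overlap, the change ran from 0.70 to 1.02 for DCX, from 0.41 to 0.59 for NRCAM, from 0.44 to 0.65 for INSM1 and from -0.59 to -0.49 for PRPH.

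The relatives of DCX, the doublecortin-like kinases, differed among themselves. DCLK2, which joins the microtubule-binding part of DCX to a kinase part, read 5.41 and 5.13 with control siRNA and 6.09 on both SSRP1 siRNA arrays. Its log2 change of 0.82 ± 0.13 (SE) was near that of DCX, with a limma adjusted p of 0.117. DCLK1, another of these kinases, had a change in the other direction of -0.40 ± 0.17 (SE, limma adjusted p = 0.412), which was -0.18 without control siRNA replicate 1 and -0.62 without control siRNA replicate 2. DCLK3 was dim, at means of 2.21 and 2.60, with a change of 0.39. None of the 3 passed the test; DCLK2 did with a variance trend and among brighter genes alone.

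Among neuronal microtubule proteins as a whole, 13 genes were above and 12 below 0. The list held 25 measured genes of 35, without DCX, and none passed the test (against 0.0945% of all genes). Of the 25, 6 (24%) had an unadjusted p under 0.05, beside 12.6% of all genes. Fitted alone, 1541 of the 7406 genes at or above the median level had such a p, and 22 of the 25 lie at that level. The median change of the list was 0.02, beside -0.007 over all genes. MAP6, a protein that makes microtubules resistant to cold, had the largest change, from 5.67 and 5.55 to 6.61 and 6.69. That is 1.04 ± 0.11 (SE), with a limma adjusted p of 0.0556; MAP6 passed with a variance trend, after quantile normalization, after median centring and among brighter genes alone, and its adjusted p lay between 0.00681 and 0.599 over all alternatives. TPPP3, a tubulin-polymerising protein, had a change of -0.46 ± 0.12 (SE, limma adjusted p = 0.246). The abundant axonal proteins MAP1B, MAP2 and STMN2 had changes of -0.21 (-0.14 without SSRP1 siRNA replicate 2), 0.17 and -0.18. CDK5, a kinase that phosphorylates DCX, had a change of -0.30 (limma unadjusted p = 0.026, limma adjusted p = 0.344) and did not pass. The groups did not overlap for 23 of the 25 genes, 11 higher and 12 lower, beside 44.3% of all genes and 53.4% of genes at or above the median level.

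The other L1-family adhesion molecules differed less than NRCAM did. L1CAM, the founding member, read 9.82 on both control arrays and 10.08 and 10.06 with SSRP1 siRNA. Its change was 0.25 ± 0.10 (SE, limma adjusted p = 0.380). CHL1, at the low means of 2.10 and 2.35, had a change of 0.25, and NFASC, which assembles the axon initial segment, had a change of -0.07 ± 0.12 (SE) with overlapping groups and of 0.04 without control siRNA replicate 1. Whether NRCAM differed from its relatives in its change was not tested.

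**Figure D2:**
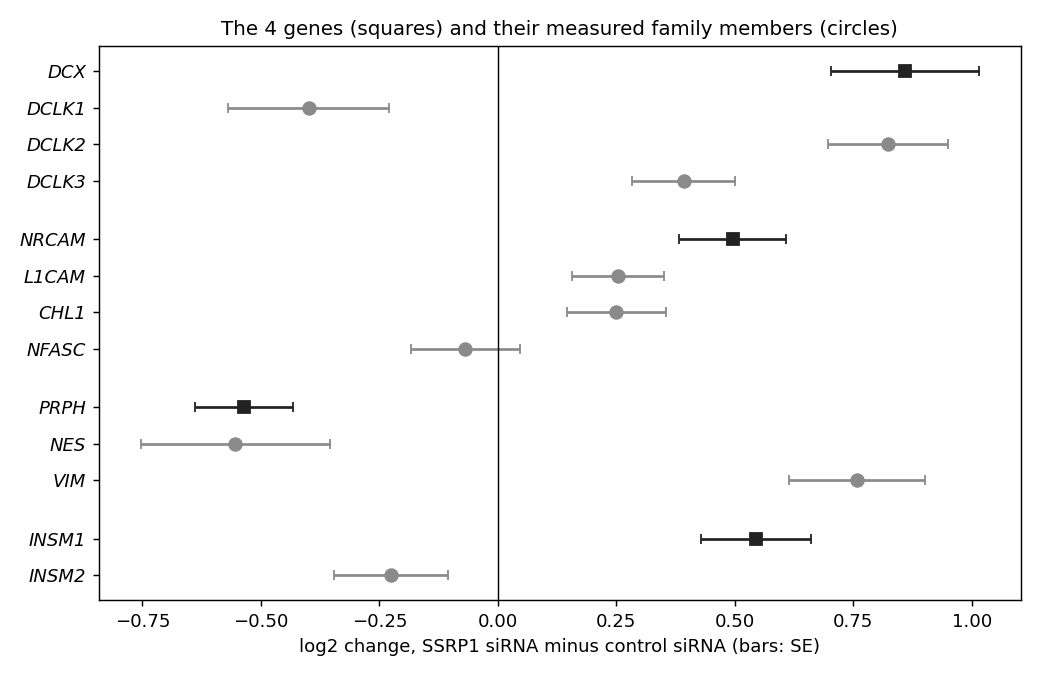
Log2 change with SSRP1 siRNA against control siRNA (horizontal axis, bars are SE, n = 2 per group) for the 4 genes (squares) and their measured relatives (circles). DCLK2 lies beside DCX at 0.82, DCLK1 lies on the other side of 0 at -0.40, and VIM at 0.76 lies opposite PRPH and NES.

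Receptors that pair with L1-type molecules on growing axons had changes in opposite directions. The semaphorin co-receptor NRP1 read 6.66 and 6.33 with control siRNA and 7.23 and 6.96 with SSRP1 siRNA, a change of 0.60 ± 0.16 (SE, limma adjusted p = 0.257). NRP2, its paralogue and a partner of NRCAM in semaphorin signalling, read 5.61 and 5.42 against 5.05 and 4.69, a change of -0.64 ± 0.15 (SE, limma adjusted p = 0.219). PLXNA1, the signalling chain of these receptors, had a change of 0.50 ± 0.12 (SE, limma adjusted p = 0.215) and passed with a variance trend alone. Of 22 measured genes in the adhesion list (33 fixed), none passed, 10 were above and 12 below 0, the median was -0.03 and 6 (27.3%) had an unadjusted p under 0.05, beside 12.6% of all genes. The neural adhesion gene NCAM1 had a change of -0.04 and the contactin gene CNTN1 a change of 0.08. CNTN2, counted below 0, turned positive after quantile normalization and after median centring.

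Intermediate filament genes that could be compared with PRPH went both ways. VIM, the vimentin of precursors and mesenchymal cells, read 6.29 and 5.98 with control siRNA and 6.98 and 6.80 with SSRP1 siRNA, a change of 0.76 ± 0.14 (SE, limma adjusted p = 0.163); it passed with a variance trend and among brighter genes alone. NES, the nestin of neural precursors, had a change of -0.55 ± 0.20 (SE, limma adjusted p = 0.361), with values of 6.70 and 6.59 against 6.38 and 5.80. Without SSRP1 siRNA replicate 2 the NES change was -0.26, and without SSRP1 siRNA replicate 1 it was -0.84. The glial and muscle filament genes GFAP and DES had changes of -0.01 and -0.04, the first of which turned positive after quantile normalization and after median centring. The cytolinker gene PLEC, which ties filaments to other structures, had a change of -0.17. The list held 7 measured genes of 14, and none passed the test. An unadjusted p under 0.05 was found for 2 (28.6%), 1 higher and 1 lower, beside 12.6% of all genes. NEFL, NEFM, NEFH and INA, with which PRPH builds filaments, were not analysed here.

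INSM2, the close relative of INSM1, had a small change of opposite sign. It read 8.24 and 8.45 with control siRNA and 8.06 and 8.17 with SSRP1 siRNA, with a change of -0.23 ± 0.12 (SE, limma adjusted p = 0.516), or -0.12 without control siRNA replicate 2. Among 31 measured transcription factors of the neuroendocrine and sympathetic lineage (35 fixed), 12 were above and 19 below 0, the median was -0.06 and none passed. An unadjusted p under 0.05 was found for 4 (12.9%), beside 12.6% of all genes. The groups did not overlap for 13 (41.9%), beside 44.3% of all genes. NEUROD2 and NEUROD4, counted below 0, turned positive after quantile normalization and after median centring. PROX1, a homeodomain factor of neuronal precursors, had a change of 0.43 ± 0.13 (SE), or 0.28 without control siRNA replicate 2, and MYT1L, a factor that maintains neuronal identity, one of 0.33 ± 0.10 (SE). HAND2, a factor of sympathetic neurons, had a change of -0.38 ± 0.10 (SE). The limma adjusted p of these 3 lay between 0.263 and 0.330, and HAND2 passed with a variance trend. The proneural genes NEUROG1, NEUROG2 and NEUROG3, which act before INSM1 in several tissues, were dim in all samples, with means over the 4 arrays between 3.30 and 3.95.

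The corepressor genes through which INSM1 and REST act showed small changes. Of 14 measured genes of 18, none passed and 1 (7.14%) had an unadjusted p under 0.05, beside 12.6% of all genes. The changes ran from -0.27 (PHF21A, which reads unmethylated histone H3) to 0.29 (RCOR3), the latter 0.18 without SSRP1 siRNA replicate 2. KDM1A, the histone demethylase that INSM1 recruits, read 9.36 and 9.37 with control siRNA and 9.22 and 9.23 with SSRP1 siRNA, a change of -0.14 ± 0.10 (SE, limma adjusted p = 0.620). RCOR1 had a change of 0.02 and HDAC1 one of -0.01, which turned positive after median centring. REST itself was dim, with means of 2.46 and 2.59.

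Secretory granule genes, many of which mark the neuroendocrine state that INSM1 promotes, were divided as well. None of 17 measured (26 fixed) passed, 8 were above and 9 below 0, and 5 (29.4%) had an unadjusted p under 0.05, beside 12.6% of all genes. SYT4 and SYT7, synaptotagmins of secretory vesicles, had changes of 0.35 ± 0.11 (SE) and -0.48 ± 0.12 (SE). VGF, a precursor of secreted peptides, had one of -0.48 ± 0.19 (SE), which was -0.72 without control siRNA replicate 2 and -0.23 without control siRNA replicate 1. The granins CHGA, CHGB and SCG2 had changes of 0.34, -0.01 and 0.29. The signs of the CHGB and SCG3 changes turned after median centring, and that of the PCSK1N change after quantile normalization.

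Markers of neurite outgrowth and of mature neurons lay mostly below 0, with a small median change. Of 18 measured genes (32 fixed), 5 were above and 13 below 0, with a median of -0.07. MARCKS and NGFR turned from below to above 0 after median centring, and NGFR also after quantile normalization. These counts concern the 18 genes with the deposited values. None passed and 6 (33.3%) had an unadjusted p under 0.05, 2 higher and 4 lower, beside 12.6% of all genes. The groups did not overlap for 9 (50%), 2 higher and 7 lower, beside 44.3% of all genes. GFRA2, the neurturin co-receptor, read 5.22 and 5.32 with control siRNA and 6.01 and 5.99 with SSRP1 siRNA, a change of 0.73 ± 0.10 (SE, limma adjusted p = 0.107), and it too passed with the trend and among brighter genes. RET, the receptor with which it signals, had a change of 0.36 ± 0.11 (SE, limma adjusted p = 0.300). SRRM4, a neuronal splicing factor, had a change of -0.45 ± 0.12 (SE, limma adjusted p = 0.255). SYT1, RTN4R and GFRA1 had changes of -0.36, -0.33 and -0.31, the last at the low means of 3.41 and 3.10. The growth cone gene GAP43 had a change of 0.07, the neuronal hydrolase gene UCHL1 one of -0.04 and the synaptic vesicle gene SYP one of 0.04. In the retinoic acid list, 6 genes of 22 were measured, none had an unadjusted p under 0.05, and ZNF423, a cofactor of retinoic acid receptors, had the largest change at 0.38 ± 0.17 (SE), which ran from 0.15 (without control siRNA replicate 2) to 0.61 (without control siRNA replicate 1). The homeobox gene MEIS1 had a change of 0.23 ± 0.14 (SE), which was 0.08 without SSRP1 siRNA replicate 1, 0.37 without SSRP1 siRNA replicate 2 and 0.14 without control siRNA replicate 2.

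Progenitor genes and inhibitors of neurogenesis held the 1 gene of all these lists that passed. NOTCH1, the receptor that holds neural precursors back from differentiation, rose from 6.02 and 5.97 to 7.45 and 7.20. The change was 1.33 ± 0.12 (SE), with a limma adjusted p of 0.0493 that lay between 0.00399 and 0.599 over the alternatives, and the call was lost without any 1 of the 4 arrays, with the replicate block, with robust variances and over all probe sets. Of the 23 measured genes (28 fixed), 8 were above and 15 below 0, with a median of -0.11, and 8 (34.8%) had an unadjusted p under 0.05, beside 12.6% of all genes. HEY1, a transcriptional target of Notch, had a change of 0.87, and DLL3, an inhibitory Notch ligand, one of -0.72. SOX9, a factor of neural crest progenitors, had a change of -0.63. These 3 did not pass the test. All 3 passed with a variance trend, and HEY1 and DLL3 also among brighter genes alone. Other Notch receptors and HES or HEY genes of the list did not rise. NOTCH3 had a change of -0.35 and HES4 one of -0.002, which turned positive after quantile normalization and after median centring. The dim genes NOTCH2, HES5 and HEY2 had changes of -0.43, -0.36 and -0.10. The groups did not overlap for 16 of the 23 genes (69.6%), 4 higher and 12 lower, beside 44.3% of all genes.

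**Figure D3:**
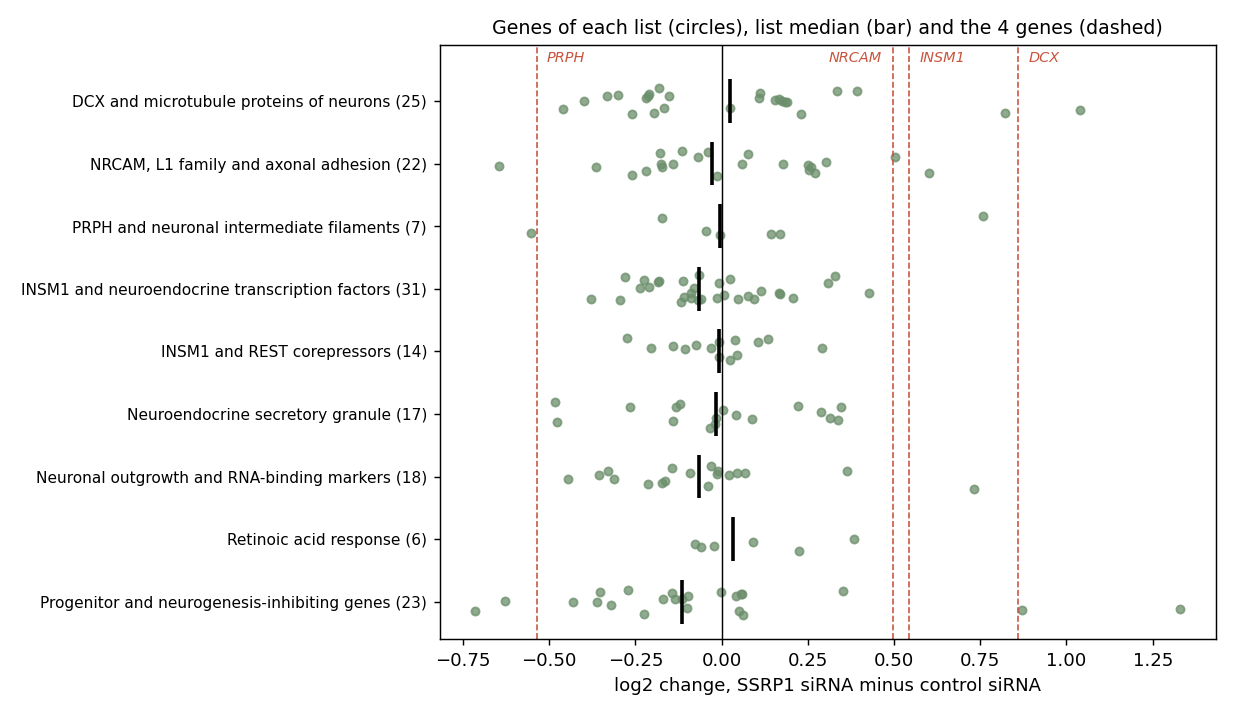
Log2 change (horizontal axis) of the measured genes of each list (circles, number in brackets), with the list's median as a bar and the 4 described genes as dashed lines. List medians lie between -0.11 and 0.03, and NOTCH1 at 1.33 and MAP6 at 1.04 are the points farthest to the right.

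Over all 9 lists, 163 of 243 genes were measured, and 1 passed the test, beside 0.0945% of all genes. An unadjusted p under 0.05 was found for 38 of the 163, which is 23.3% beside 12.6% of all genes. Of these 19 were higher and 19 lower, where 6.56% of all genes were higher and 6.03% lower at that p. Fitted alone, 1541 of the 7406 genes at or above the median level had such a p, and 43 of the 118 list genes at that level. The groups did not overlap for 93 of the 163 (57.1%), 41 higher and 52 lower. This stood beside 44.3% of all genes and 53.4% of genes at or above the median level, where 118 of the 163 lie. The median change was -0.03. The lists were chosen with earlier results of these data known.

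The line's own markers and those of other cell types were measured beside these genes. Of 8 measured noradrenergic markers of neuroblastoma (10 fixed), all lay above the median level of all genes, 7 had a change below 0 and none passed. An unadjusted p under 0.05 was found for 4 (50%), 3 lower and 1 higher, beside 12.6% of all genes. Fitted alone, 1541 of the 7406 genes at or above the median level had such a p. Of the 8 markers, the groups did not overlap for 7 (87.5%), 6 lower and 1 higher, beside 53.4% of genes at or above the median level. CHGA was the 1 marker above 0, at 0.34. DBH and TH, the enzymes of noradrenaline synthesis, had changes of -0.77 (past the test with a variance trend and among brighter genes) and -0.34, and the sum of the 8 log2 values ran from 71.2 to 71.5 with control siRNA and from 69.2 to 69.7 with SSRP1 siRNA. Mesenchymal state markers summed to between 43.1 and 43.3 with control siRNA and to between 43.1 and 43.8 with SSRP1 siRNA over 10 genes, of which 7 lay below the median level. Schwann cell and glial markers (6 of 9 measured) summed to between 24.8 and 25.1 against 25.3 and 25.6. Of the 6, 2 lay at or above the median level, and 3 had a change above 0 and 3 below. S100B, at 0.47, was the 1 marker of the 6 (16.7%) whose groups did not overlap, beside 44.3% of all genes. ERBB3 and SOX10 had changes of 0.12 and 0.04, and FOXD3, GFAP and MBP changes of -0.08, -0.01 and -0.02. GFAP and MBP turned positive after quantile normalization and after median centring. Fibroblast markers (4 of 9 measured) summed to between 22.5 and 23.5 against 24.3 and 24.6, most of which was LUM. Its change was 1.20 (past the test with a variance trend), with THY1 at 0.25, TWIST1 at 0.02 and DCN dim at a change of -0.04. Blood and endothelial markers (4 of 9 measured) were all below the median level, at sums of 12.8 to 12.9 against 12.7 to 12.9. No marker passed the test in limma, and 7 of the 32 (21.9%) had an unadjusted p under 0.05, beside 12.6% of all genes. All samples came from 1 clonal line. In bulk RNA of such a line, fewer cells in a given state and less RNA per cell cannot be told apart. The part of such shifts in the values of DCX, NRCAM, PRPH and INSM1 was not tested.

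The genes most like each of the 4 were found by the root mean square difference between centred log2 values over the 4 arrays, among 7405 other genes at or above the median level. Centring takes the mean of each gene over the 4 arrays from its values. DCX was most like SOST, which encodes sclerostin, a Wnt antagonist of bone, with a difference of 0.027, then PRR16 (0.027) and PGR, the progesterone receptor (0.044). NRCAM was most like the pseudogene FRG1HP (0.013), then RIOK3 (0.017) and PGM2L1 (0.019). PRPH was most like MBNL3, a splicing regulator (0.019), then TTYH2, of the tweety family (0.031) and MIS18A, a centromere gene (0.035). INSM1 was most like SYNPO, an actin-binding protein of dendritic spines (0.010), then HPCAL4 (0.013) and LIMD2 (0.014). Genes within 0.1 were fewest for DCX, at 14, against 184 for NRCAM, 106 for PRPH and 137 for INSM1. With only 4 arrays in 2 groups, such likeness describes these samples and says nothing about the genes themselves.

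**Figure D4:**
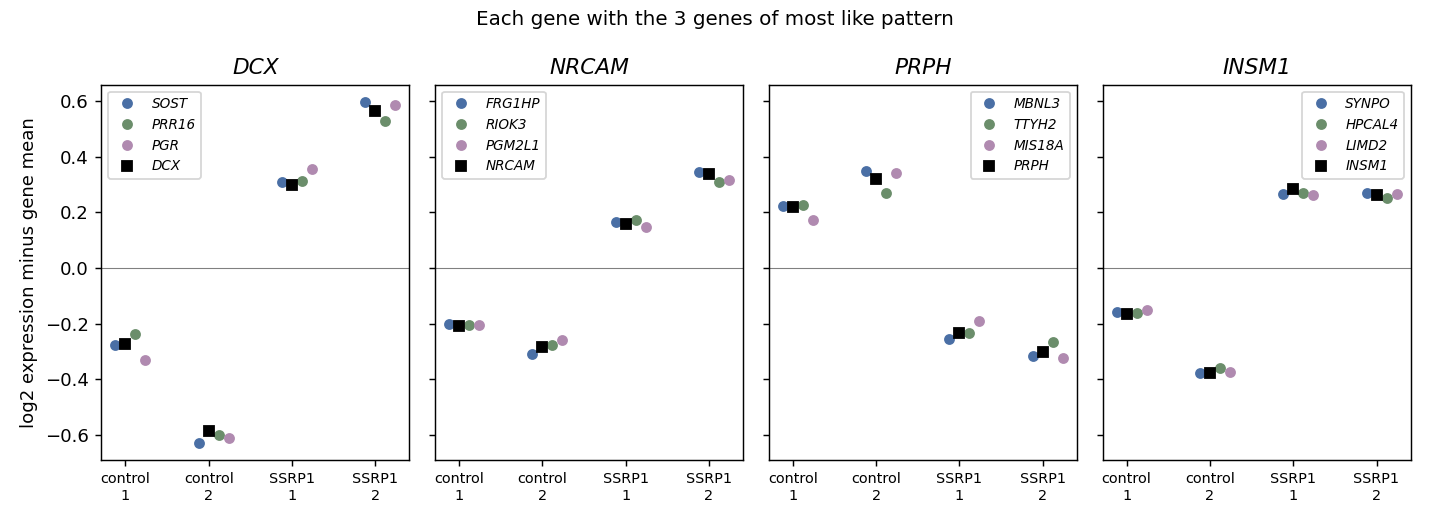
Log2 expression minus the mean of each gene over the 4 arrays (vertical axis) on each array (horizontal axis) for DCX, NRCAM, PRPH and INSM1 (black squares) and the 3 genes nearest to each (coloured circles, shifted sideways for legibility). The largest of the 12 root mean square differences is 0.044, for PGR against DCX.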

How the data were processed

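Expression was measured in 4 samples, grouped by their titles. The deposited log2 expression values per probe set were made by the authors with RMA, per the submitters' processing notes; its software, version and genome build are not stated there. RMA equalises distributions between arrays, so a shift of all transcripts together would not show, and dim values are compressed. Of 46255 probe sets, 15835 had 1 gene symbol in the platform annotation, updated through gene IDs to RefSeq (0 changed), and 30420 were unnamed and not used in the main test. Where a gene had several probe sets (651 genes) the one of highest mean was used. limma 3.58.1 (R 4.3.3; lmFit, eBayes, no trend, no block) was fitted to all 14812 genes and both groups, with two-sided p-values adjusted by Benjamini-Hochberg (threshold 0.05) and 3.79 prior and 2 residual degrees of freedom. It was tested on simulated data. The members and lists were chosen with earlier results of these data known. Named were the 4 genes, SSRP1, their relatives, and per list the genes past the test (at most 3), or else the 3 largest changes among genes with non-overlapping groups at or above the median level; other names were chosen after their values were seen. Lists are described by counts. Alternatives were a replicate block, a variance trend, robust variances, quantile normalization, median centring, the mean of probe sets, brighter genes alone, all probe sets, each array left out and an adjusted p under 0.1.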

Additional observations from a re-analysis of the deposited data

How the results depend on the processing

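Quantile normalization and median centring left DCX, NRCAM, PRPH and INSM1 on the same side of 0, and the other settings with all 4 arrays cannot change these values. With the replicate block the SSRP1 change stayed at -1.95 with a limma adjusted p of 0.0569, with robust variances it was -1.95 (0.0512) and over all probe sets -1.95 (0.144). It ran from -2.17 to -1.72 with 1 array left out (adjusted p from 0.241 to 0.599, on 1 residual degree of freedom). The 14 genes past the limma test became 6 with the replicate block, 215 with a variance trend, 9 with robust variances, 25 after quantile normalization, 23 after median centring, 179 among brighter genes alone, 41 at an adjusted p under 0.1 and 0 over all probe sets (3854 with an unadjusted p under 0.05). The range with 1 array left out was 0 to 0 (1200 to 1672 at an unadjusted p under 0.05). The 1 pathway list gene became 10 with the trend, 7 among brighter genes alone, 2 after quantile normalization, 2 after centring and 2 at an adjusted p under 0.1. It became 0 with the block (43 unadjusted), 0 with robust variances (37), 0 over all probe sets (31) and 0 to 0 with 1 array left out (22 to 24). The 0 marker genes became 4 with the trend and 2 among brighter genes alone. Same-numbered arrays deviated from their group means with a correlation of 0.11 over all genes and 0.30 over the list genes. The labels tie no pairs and there are only 2, so whether the numbers pair the samples is unknown.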
